A study of Mus musculus with 15 samples.

Results

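The Slc25a37 upstream contact domain is a stretch of mouse chromosome 14 that starts just beyond the Slc25a37 promoter, on the side away from the gene body, and runs from 69905816 to 70060563 (mm9). Its members were chosen by position alone: all DpnII restriction fragments with their midpoint in this stretch and more than 2 kb from the midpoint of the captured promoter, which the tables leave as a gap from 69902161 to 69904393. These were 377 fragments with a median length of 290 bp, of 89453 fragments of chromosome 14 in both Slc25a37 tables. They fall into an inner section of 135 fragments (69905816 to 69959889, 54.1 kb) and an outer section of 242 fragments (69959890 to 70060563, 100.3 kb), split near the place where contact drops. For most comparisons the fragments were summed into 31 windows of about 5 kb, of which 11 lie in the inner and 20 in the outer section. Over the 9 replicated libraries 130 of the 377 fragments held at least 90 reads, 128 of them in the inner section and 2 in the outer, and 26 of the 31 windows did. Fragments of the outer section were therefore described by windows only.

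Slc25a37 encodes mitoferrin-1, the carrier that brings iron across the inner mitochondrial membrane of red cell precursors for haem synthesis, and the gene is strongly induced as these cells mature. A promoter that is captured in a 3C experiment is ligated most often to the chromatin closest to it along the chromosome, and enhancers or structural sites that meet it more often stand out as peaks above that fall with distance. A contact domain is a stretch within which such ligations are frequent, and its edge is the place where they drop within a short distance. Erythroid enhancers of Slc25a37 are known upstream of the gene.

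The study used NG Capture-C, in which a DpnII 3C library is enriched for the ligation partners of chosen promoters in repeated rounds of oligonucleotide capture, to follow contacts of the α-globin, β-globin and Slc25a37 promoters when elements of the α-globin super-enhancer are deleted. None of the deleted elements (R1, R2, R3, Rm and R4) lies on chromosome 14, and the labels list no edit at Slc25a37 in any group. The groups were R1R2_KO (R1 and R2 deleted together) and R2R3_KO (R2 and R3 deleted together), single libraries of R1_KO, R2_KO, R3_KO, Rm_KO and R4_KO, 1 library of E14 embryonic stem (ES) cells of strain 129/Ola, and the control, which carries no listed deletion. R1R2_KO, R2R3_KO and control had 3 libraries each, named as biological replicates, and the other 6 groups had 1. All 14 erythroid libraries came from mid-gestation F1 C57Bl6 / CBA fetal livers, grown for 5 to 7 days with Epo, SCF and dexamethasone, cleared of Ter119-positive cells and then kept for 18 hours in high Epo. Strain and cell type differ together between the ES and the erythroid libraries, so they cannot be told apart in any comparison below. The labels state neither zygosity nor the number of embryos in a culture, and for the ES cells they repeat the fetal liver protocol. A contact value is an average over all cells of a culture and both alleles.

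The Slc25a37 tables held 18212 to 47852 reads per replicated library and 109588 to 221235 reads per unreplicated library. The share of reads that fell on chromosome 14 was 81.7% in ES cells, 57.2% to 69.0% in the single deletions, 67.4% to 68.8% in R1R2_KO, 64.6% to 66.4% in R2R3_KO and 62.0%, 69.0% and 70.3% in control. Control library 1 had the deepest coverage and the lowest chromosome 14 share of its group, and it stands apart from the other 2 in several results below. R2R3_KO had the lowest depth of all groups, 18212 to 22484 reads. As a check of the labels, a fragment inside R2 had 0, 0 and 0 reads from the α-globin promoter in R2R3_KO and 22, 15 and 22 reads in R1R2_KO, against 463, 540 and 537 reads in control. The headers number the R1R2_KO libraries 1 to 3 and those of R2R3_KO 1 to 3 again, while control has 4 to 6; if this marks a separate run, run and genotype cannot be told apart for R2R3_KO. Below, normalised reads are reads per 100000 reads on chromosome 14 more than 2 kb from the viewpoint midpoint, and distances are from that midpoint.

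The whole domain took 22.0% of the chromosome 14 reads in ES cells and 31.8% to 39.8% in the single deletions. It took 34.2%, 35.5% and 36.4% in the R1R2_KO libraries and 31.6%, 30.7% and 32.1% in the R2R3_KO libraries, against 36.9%, 42.3% and 41.4% in the control libraries. In the erythroid libraries nearly all of this lay in the inner section, which held 17.1% of the reads in ES cells and a median of 30.4% (29.3% to 37.5%) in the single deletions. It held 33.1% ± 1.19 in R1R2_KO and 28.3% ± 0.61 in R2R3_KO, against 37.7% ± 2.98 in control (SD, n = 3 each). The outer section held 4.96% in ES cells and a median of 2.31% (2.23% to 2.52%) in the single deletions. It held 2.29% ± 0.11 in R1R2_KO and 3.17% ± 0.14 in R2R3_KO, against 2.49% ± 0.10 in control. Of the 15 libraries ES cells had the lowest share inside the edge and the highest beyond it, and R2R3_KO the lowest and highest of the 3 replicated groups.

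In erythroid cells the contact level did not decline smoothly from the promoter but formed a near summit, a valley and a far summit before the edge. These 3 places were picked from the profile itself and carry no test. The near summit is the window closest to the promoter (69905816 to 69909869), with 1207, 1253 and 1263 normalised reads per kb in R1R2_KO and 964, 1071 and 1006 in R2R3_KO, against 1248, 1483 and 1488 in control. The valley (69925115 to 69935299) had 475, 474 and 481 in R1R2_KO and 436, 403 and 419 in R2R3_KO, against 498, 546 and 557 in control. The far summit (69935300 to 69944738), 34.2 to 39.2 kb from the promoter by its window centres, climbed back to 907, 953 and 986 in R1R2_KO and 731, 682 and 769 in R2R3_KO, against 987, 1249 and 1156 in control. In every one of the 14 erythroid libraries the far summit stood above the valley, by 1.43-fold (R3_KO) to 2.29-fold (control library 2). In ES cells the near summit, valley and far summit had 830, 217 and 243 normalised reads per kb, so the far summit was 1.12-fold above the valley. Relative to the near summit, the far summit reached 0.29 in ES cells, below the 0.63 to 0.84 of the erythroid libraries.

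**Figure D1:**
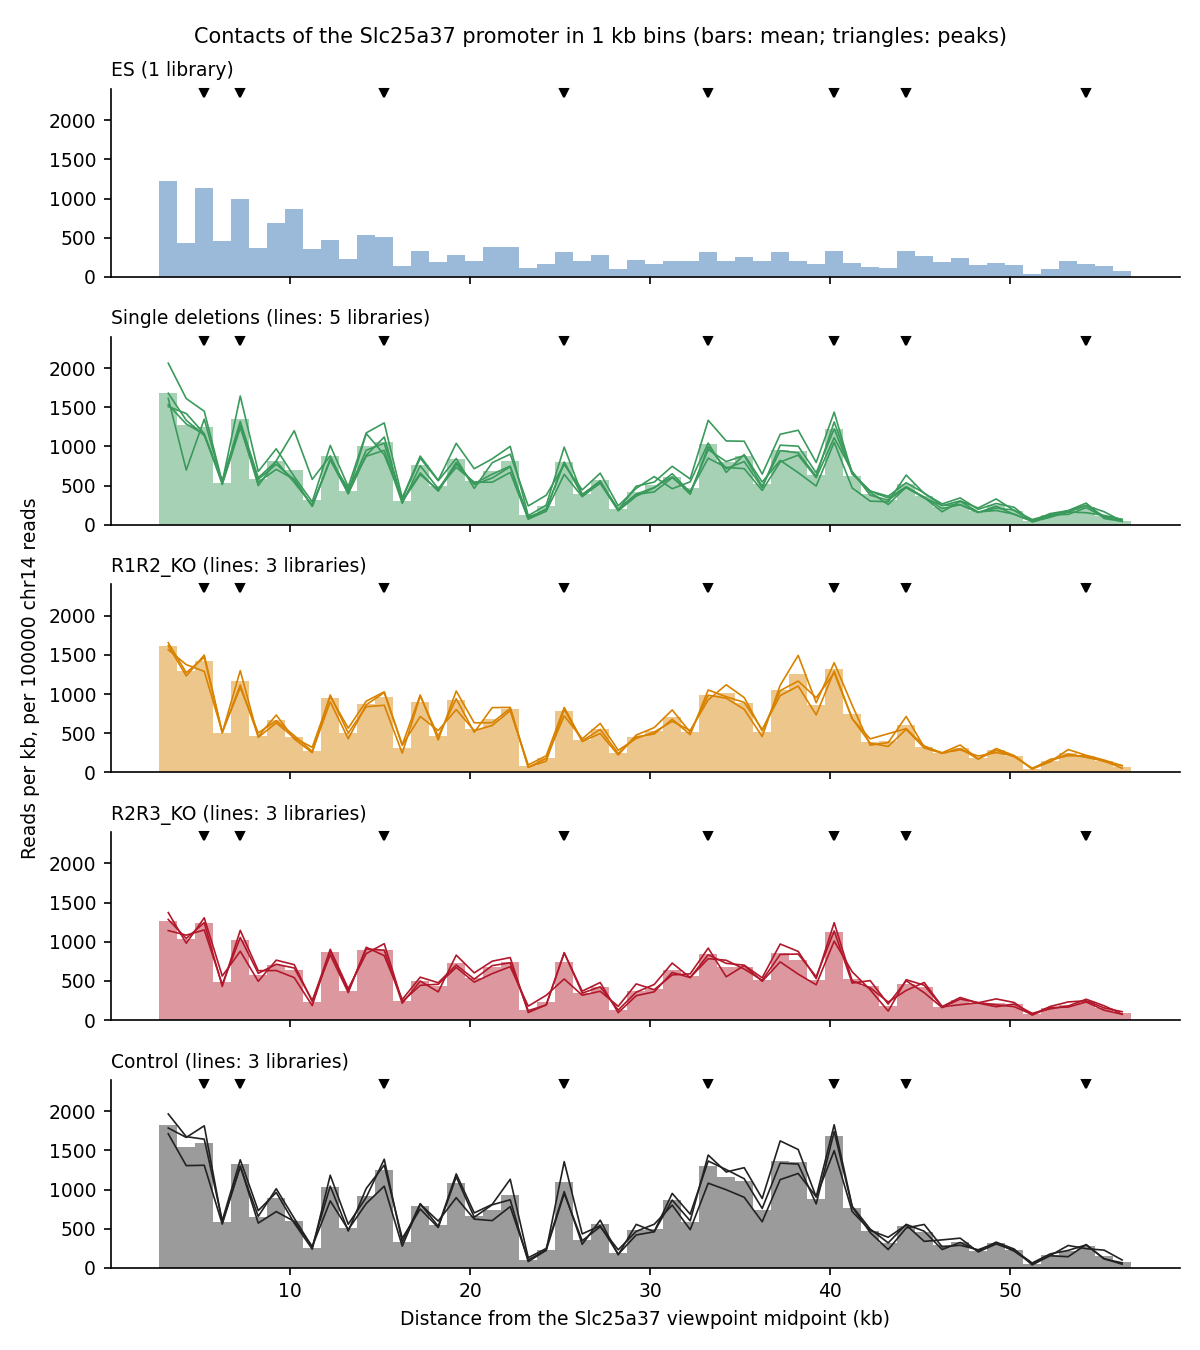
Normalised reads per kb in 1 kb bins over the inner section, against distance from the viewpoint midpoint; bars are group means, thin lines single libraries and triangles the 8 peaks. The erythroid libraries rise again between 33.2 and 40.2 kb. Averaged over the whole far summit they have 682 to 1249 normalised reads per kb, and the ES library has 243.

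Beyond the far summit contact fell steeply. The window centred at 44.2 kb averaged 384 normalised reads per kb in R1R2_KO and 331 in R2R3_KO, against 411 in control. The windows at 49.2 and 54.2 kb averaged 183 and 187 in R1R2_KO and 177 and 185 in R2R3_KO, against 203 and 199 in control. The last 2 form a low shelf just inside the edge. In ES cells the same 3 windows had 206, 134 and 158 normalised reads per kb, against medians of 350, 159 and 159 in the single deletions. The ES library was thus below every single deletion at 44.2 and 49.2 kb and within their range at 54.2 kb.

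Within the inner section 8 contact peaks were found, each a run of 1 kb bins at least 1.5 times the median of the bins within 5 kb on each side, using only the mean of the 5 single deletion libraries. The peaks covered 34 fragments and 7.83 kb, and the remaining 101 inner fragments 46.2 kb. Their fragments were shorter than the rest, with medians of 232.5 and 350.0 bp, and reads per kb from a 3C library depend on fragment length as well as on contact; the part of length in the peaks was not tested. The peaks lay 5.2, 7.2, 15.2, 25.2, 33.2, 40.2, 44.2 and 54.2 kb from the viewpoint midpoint. By the same rule with the fragments placed at their midpoints there were 7 peaks, with a lower fold 13, and with a fold of 2 there was 1.

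Because the peaks were chosen where the single deletions are high, lower values in ES cells are favoured by the choice, and the comparison is a description only. At the peak of 5.2 kb (69908111 to 69908848) the ES library had 1377 normalised reads per kb (95% counting interval 1311 to 1445), inside the range of the single deletions, 1261 to 1643. At the peak of 7.2 kb (69909870 to 69910916) it had 1021 (974 to 1071), against 1230 to 1618 in the single deletions. The peak at 15.2 kb (69917987 to 69918785) had 605 (563 to 649) in ES cells, against 1048 to 1565. From here to the peak of 40.2 kb the ratio of the single deletion median over ES grew.

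At the peak of 25.2 kb (69928040 to 69928945), which stands in the valley, ES cells had 308 normalised reads per kb (281 to 338), against a median of 771 (631 to 1003) in the single deletions. The peak of 33.2 kb (69936145 to 69936974) opens the far summit and had 340 (310 to 373) in ES cells, against 1120 (943 to 1472). The peak of 40.2 kb (69943008 to 69944212) closes it and had 307 (284 to 333) in ES cells, against 1135 (950 to 1302), a ratio of the single deletion median over ES of 3.69. At the 2 peaks on the far side, 44.2 kb (69946883 to 69948080) and 54.2 kb (69956912 to 69958016), the ratio was 1.47 and 1.44, and at the 5.2 kb peak 0.93.

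**Figure D2:**
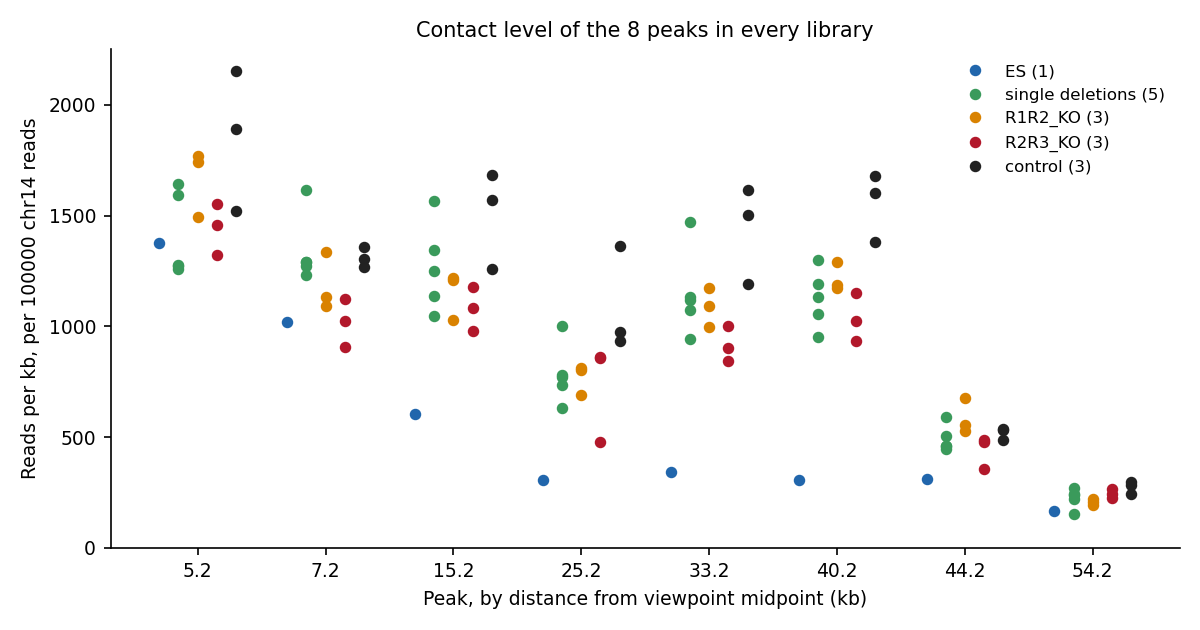
Normalised reads per kb of the 8 peaks in every library, ordered by distance from the viewpoint midpoint; each point is 1 library. At 5.2 kb ES cells lie inside the range of the single deletions and below every control and R1R2_KO library. They lie well below all erythroid libraries at 25.2, 33.2 and 40.2 kb, where they have 308, 340 and 307.

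Among inner fragments of at least 100 bp, the 5 with the most reads per kb over the single deletions lay 3.1 to 14.7 kb from the viewpoint midpoint or in the far summit. They too were chosen by their level in the single deletions, which favours lower values in ES cells. The fragment from 69906257 to 69906473, 3.1 kb away, led with 2821 normalised reads per kb in ES cells, against 3710 in the median single deletion. Those from 69908652 to 69908822 and from 69912856 to 69912963 had 2068 and 2493 in ES cells, against 2220 and 2271. The fragment from 69917870 to 69917986 had 1301 in ES cells, against 2721. The only one of the 5 in the far summit, from 69938605 to 69938734, had 639 in ES cells, against 2283.

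The edge was searched for only in a stretch centred on the border between the inner and outer sections, so its position is not independent of that border. Within this stretch it was the fragment end between 5 kb of chromatin on each side at which reads per kb fell most. Steeper falls elsewhere in the domain were not looked for. In 12 of the 15 libraries, ES cells included, this was the same fragment end at 69962058, 58.8 kb from the viewpoint midpoint. It was 69961298 in R1R2_KO library 2 and 69959889 in R1R2_KO library 3 and control library 1, so all 15 lay within the same few fragments. The fall at that place was 3.17-fold in ES cells, against a median of 4.18-fold and a range of 3.10-fold to 6.27-fold in the erythroid libraries. The ES value therefore lay inside the erythroid range, next to the lowest, R3_KO.

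A fixed measure of the edge, reads per kb in the 10 kb below 69959890 over those in the 10 kb above, separated the ES library more. It was 2.27-fold (95% counting interval 2.10 to 2.44) in ES cells, below the 2.99-fold to 5.60-fold of the 14 erythroid libraries. On the log2 scale it averaged 1.93 ± 0.18 in R1R2_KO and 1.68 ± 0.15 in R2R3_KO, against 2.14 ± 0.30 in control (SD, n = 3 each). The R2R3_KO values (1.62, 1.58 and 1.85) did not overlap with those of control (1.93, 2.49 and 2.01). The difference of -0.46 gave an exact two-sided permutation p of 0.1, the smallest that 3 against 3 libraries allow, and 0.225 after Benjamini-Hochberg adjustment over 9 such comparisons. It was -0.71 with flanks of 20 kb, -0.27 and -0.23 with the border 5 kb lower and higher, and -0.28 without control library 2. For R1R2_KO the difference was -0.21 (exact permutation p = 0.5), within the spread of the libraries.

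Beyond the edge the level did not fall evenly. In the 3 group means and in ES cells the windows at 69.2, 89.2, 99.2, 124.2 and 149.2 kb were above both their neighbours, which was not tested. The first of them (69969865 to 69974784) averaged 77.8 normalised reads per kb in R1R2_KO and 96.2 in R2R3_KO, against 85.3 in control. In ES cells it had 88.6 and in the median single deletion 64.4. The last window (70054415 to 70060563), 154.2 kb away, held 48, 24 and 19 normalised reads in R1R2_KO and 69, 66 and 34 in R2R3_KO, against 38, 43 and 20 in control. With 70 reads over the 9 libraries it was too thin to test.

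**Figure D3:**
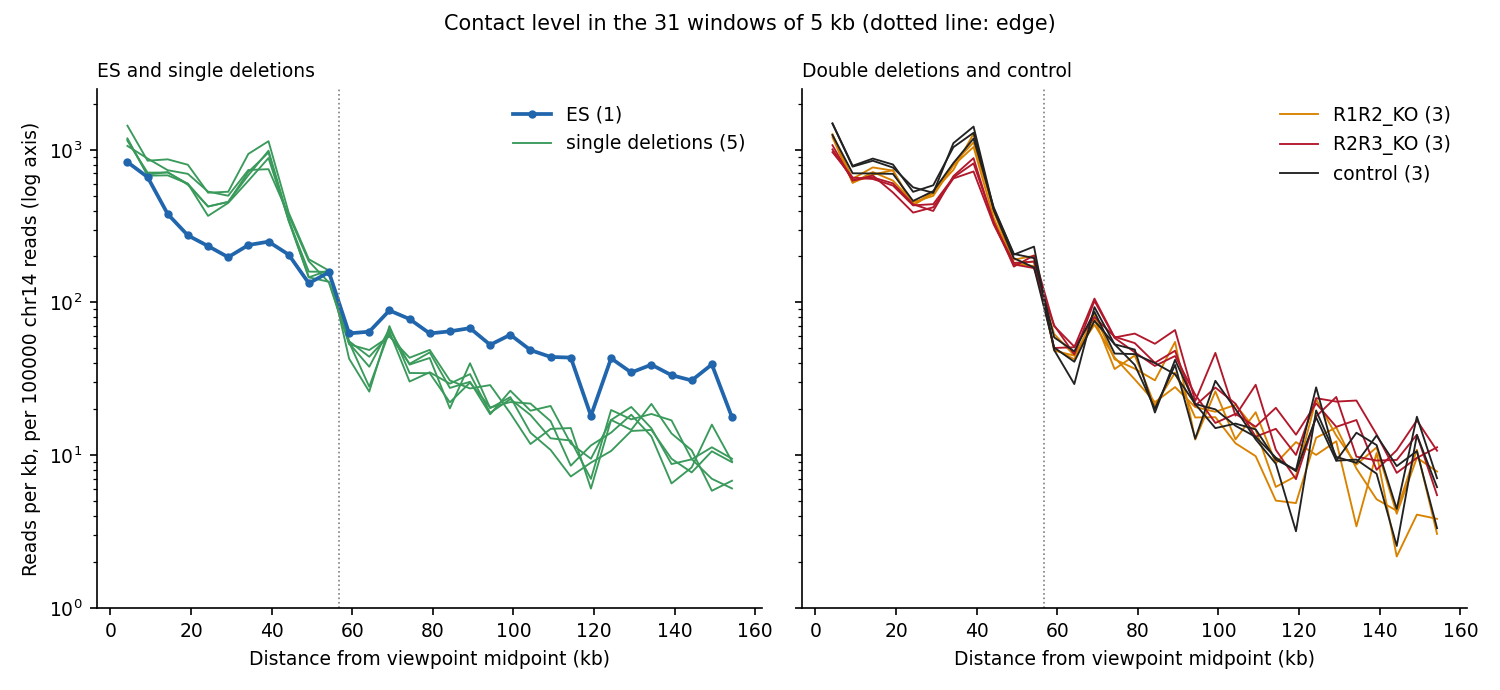
Normalised reads per kb (log axis) in the 31 windows of 5 kb against distance from the viewpoint midpoint, 1 line per library; left, ES and single deletions, right, double deletions and control. The ES line runs below the single deletions up to 49.2 kb, meets them at 54.2 kb just inside the edge and runs above them from the window at 59.2 kb outward.

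ES cells were set against the 5 single deletions, which share their table; with 1 ES library there is no test, and no control library lies in that table. Of the 31 windows 4 were lower in ES cells by at least 2-fold, against 2.07% of all 193 windows within 500 kb that held 60 or more reads over the 6 libraries. These 4 were all in the inner section, and no other window of the 193 was as low. In either direction 18 of the 31 were past 2-fold, against 78.8% of the 193. The window at 39.2 kb (69940380 to 69944738) had 1090 normalised reads in ES cells (1040 to 1142), against 3252 to 4960 in the single deletions, so that the ES level was 0.26 of their median. The window at 34.2 kb (69935300 to 69940379) had 1207 (1155 to 1262), against 3183 to 4771, which is 0.33 of the median. The other 2, at 19.2 and 29.2 kb, were at 0.46 and 0.43 of the median. The window at 9.2 kb, by contrast, had 3408 in ES cells, against 3484 to 4510 in the single deletions, and the one at 54.2 kb had 666, against 570 to 686.

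In the outer section 14 of 20 windows were higher in ES cells by at least 2-fold, while 76.7% of all 193 windows within 500 kb were. Their share of the 31 windows, 45.2%, lies below that background, and the median ratio of ES over the single deletions was 1.97 in the 31 windows, against 3.55 in all 193. The window at 59.2 kb, which holds the edge, had 304 normalised reads in ES cells, against 207 to 270. The window at 114.2 kb (70015227 to 70019878) had 203, against 34 to 70, a ratio of 3.66. Inner over outer reads per kb, a ratio that needs no scale between libraries, was 6.39 in ES cells (95% counting interval 6.24 to 6.56), against 16.0 to 30.5 in the 14 erythroid libraries. ES cells also had the highest chromosome 14 share, 81.7%, and its part in these values was not tested.

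Over all 135 inner fragments the median ratio of the single deletion median over ES was 1.88, with a range of 0.32 to 24.4. The highest ratio, at the fragment from 69957787 to 69958016, rests on 3 reads in ES cells, or 1.89 normalised reads. The single deletions had a median of 46.0 there, but the lowest of them had only 4.86. The fragment from 69934535 to 69934598 likewise had 6.92 in ES cells and 11.7 in the lowest single deletion, against a median of 81.9. Low values at these fragments are therefore not particular to ES cells. The 5 named fragments of the far summit spread widely, with ratios of 2.06 (69936625 to 69936735), 2.92 (69940742 to 69940929), 3.57 (69938605 to 69938734), 5.22 and 9.21. That with 9.21, from 69937333 to 69937682, 34.2 kb from the viewpoint midpoint, had 30.2 normalised reads in ES cells (48 reads), against a median of 278 and a range of 139 to 414 in the single deletions. That with 5.22, from 69941833 to 69942029, had 71.1 (113 reads), against 371 (276 to 585). In both the ES value was below every single deletion library. By contrast the short fragment from 69908111 to 69908135, 4.8 kb from the viewpoint midpoint, had 106 in ES cells, against 71.0 (60.6 to 98.5) in the single deletions. This did not hold for all erythroid libraries. Control had 152, 251 and 148 there and R1R2_KO 131, 153 and 197, all above ES cells, while R2R3_KO had 104, 58 and 92.

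Deletion of R2 and R3 on another chromosome went with lower contact over most of the inner section at Slc25a37. R2R3_KO against control was tested with edgeR's quasi-likelihood test on the window counts, with Benjamini-Hochberg adjustment over the 78 windows within 500 kb that held at least 90 reads. Of the 26 tested member windows 9 fell, all among the 11 inner windows, where 17.9% of the 78 fell, and 2 rose, where 12.8% of the 78 rose. The inner windows had a median log2 change of -0.31 and the 15 tested outer windows 0.27, while all 78 had 0.24. With both directions counted, 42.3% of the member windows passed, against 30.8% of all 78.

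Among the inner windows, those of the far summit changed most. The one at 39.2 kb had 3550, 3142 and 3842 normalised reads in R2R3_KO, against 5161, 6182 and 5629 in control. All 3 R2R3_KO libraries were below all control libraries, at 62.1% of the control mean (log2 change -0.69, SE 0.10, edgeR adjusted p = 8.97e-08). The one at 34.2 kb had 3349, 3295 and 3413 in R2R3_KO, against 4154, 5612 and 5282 in control (log2 change -0.58, SE 0.10, edgeR adjusted p = 3.29e-06). Both windows passed in each of 15 alternatives, with log2 changes of -0.89 to -0.42 and -0.78 to -0.31. The window closest to the promoter had 3909, 4340 and 4077 in R2R3_KO, against 5058, 6013 and 6033 in control (log2 change -0.47, SE 0.09, edgeR adjusted p = 8.29e-05), and it too passed in each of its 14 alternatives.

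The 6 other windows that fell, centred at 9.2, 14.2, 19.2, 24.2, 29.2 and 44.2 kb, had log2 changes of -0.40 to -0.23. In this order they passed in 8, 10, 14, 12, 14 and 14 of 15 alternatives. Of the 6 alternatives that leave out a library, the windows at 9.2 and 14.2 kb passed in only 1 and 2. The shelf windows at 49.2 and 54.2 kb gave -0.20 (edgeR adjusted p = 0.0934) and -0.10 (0.477) and did not pass. The 2 windows that rose lie in the outer section: the one from 69984885 to 69990213 had 214, 205 and 286 normalised reads in R2R3_KO, against 214, 101 and 107 in control (log2 change 0.65, SE 0.25, edgeR adjusted p = 0.0405). In it control library 1 lay among the R2R3_KO libraries, and the window passed in only 5 of 15 alternatives. The one from 70029682 to 70034942 had 118, 80 and 126 in R2R3_KO, against 48, 48 and 51 in control (log2 change 1.12, SE 0.35, edgeR adjusted p = 0.0119).

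The count of 11 was 7 without control library 2, without R2R3_KO library 1 and without R2R3_KO library 3. The calls also depend on what the reads are scaled to. With the reads within 500 kb as library size, which the domain itself makes up in large part, the median change of all 78 windows moved by 0.26, and 3 member windows fell and 9 rose. The 3 were those closest to the promoter (-0.20), at 34.2 kb (-0.31) and at 39.2 kb (-0.42). On that scale the window at 9.2 kb turned direction, to 0.03 (edgeR adjusted p = 0.679). The shelf windows at 49.2 and 54.2 kb turned as well, to 0.06 and 0.16 (edgeR adjusted p = 0.597 and 0.221).

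**Figure D4:**
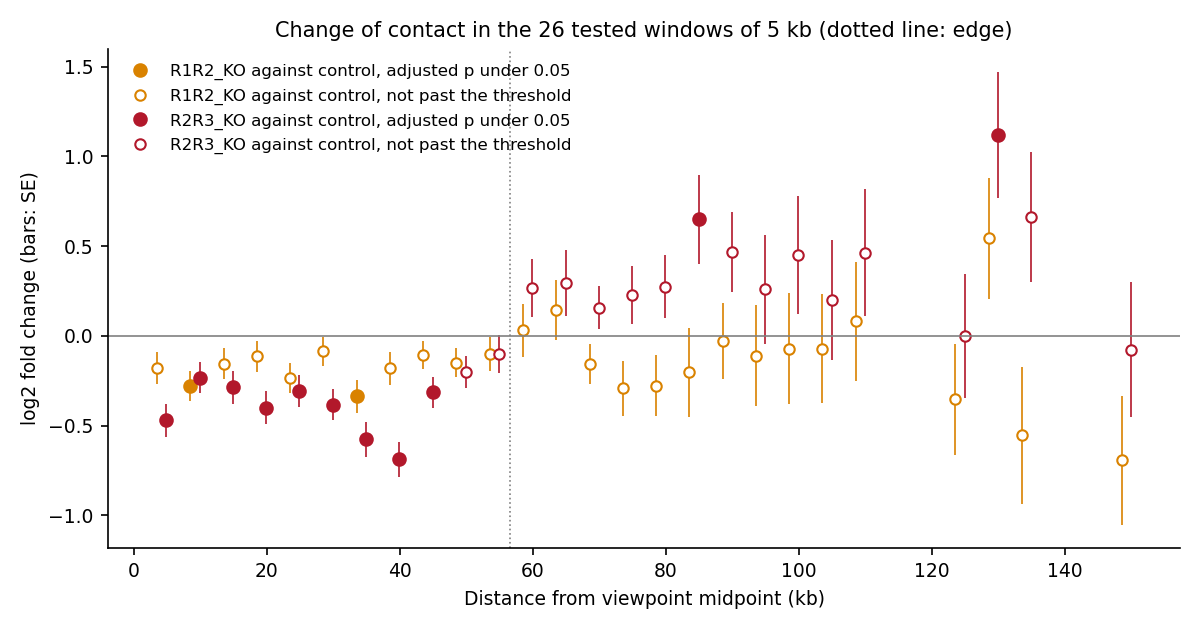
Log2 fold change against control (edgeR, bars SE) in the 26 tested windows, by distance from the viewpoint midpoint; filled points passed an adjusted p of 0.05. R2R3_KO lies below 0 in all 11 inner windows, lowest at 39.2 kb with -0.69, and above 0 in 13 of the 15 outer ones; R1R2_KO passed at 9.2 and 34.2 kb only.

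The inner over outer ratio, which needs no scale, showed the same separation. It ran from 16.0 to 17-fold in the 3 R2R3_KO libraries, against 24.9-fold, 29.2-fold and 30.5-fold in control. The groups did not overlap. On the log2 scale the means of 4.05 ± 0.04 in R2R3_KO and 4.81 ± 0.15 in control (SD, n = 3 each) differ by -0.76. The exact two-sided permutation p was 0.1, the smallest possible, and 0.225 adjusted over the 9 comparisons. R1R2_KO ran from 25.2 to 29.3, which overlapped with control, and its log2 mean of 4.74 ± 0.12 differed from control by -0.07 (exact permutation p = 0.8).

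Deletion of R1 and R2 went with smaller changes. For R1R2_KO 2 of the 26 tested member windows passed (edgeR, adjusted p under 0.05), against 6.41% of all 78. Both fell, as did 2.56% of the 78, and none rose, as 3.85% did. At an unadjusted p under 0.05 there were 4. All 11 inner windows had a negative log2 change, with a median of -0.15, against -0.07 for all 78. The window at 34.2 kb had 4008, 4128 and 3750 normalised reads in R1R2_KO, against 4154, 5612 and 5282 in control (log2 change -0.34, SE 0.09, edgeR adjusted p = 0.0156). The window at 9.2 kb had 3128, 3135 and 3324 in R1R2_KO, against 3610, 3991 and 4041 in control (log2 change -0.28, SE 0.08, edgeR adjusted p = 0.0245). In both the groups did not overlap. At 34.2 kb control library 1, with 4154, lay next to the highest R1R2_KO library, with 4128.

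Both R1R2_KO calls depend on single libraries of control and of R1R2_KO, and on the settings of the fit. Without control library 2 or 3 the count was 0, and without control library 1 it was 6. It was also 0 with TMM factors, 0 when only R1R2_KO and control entered the fit, 0 without R1R2_KO library 1 and 1 without R1R2_KO library 2 or 3.

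Set directly against each other, R2R3_KO and R1R2_KO differed in 8 of the 26 windows, against 21.8% of all 78 (edgeR, adjusted p under 0.05). R2R3_KO was lower in 4, as in 11.5% of the 78, and higher in the other 4, as in 10.3%. The window at 39.2 kb again differed most among the inner ones, with 3550, 3142 and 3842 normalised reads in R2R3_KO, against 4549, 4869 and 5555 in R1R2_KO (log2 change -0.51, SE 0.10, edgeR adjusted p = 9.09e-05). At 34.2 kb the difference was -0.24 (edgeR adjusted p = 0.0695) and did not pass. At 9.2 kb it was 0.04 (edgeR adjusted p = 0.690). The 4 higher windows, at 74.2, 79.2, 84.2 and 134.2 kb, had log2 changes of 0.52 to 1.22. The split was 6 lower and 3 higher with TMM factors or with reads outside the domain as library size, and 1 lower and 7 higher with the local scale. It was 2 windows in all without R2R3_KO library 3, 4 without R1R2_KO library 3 and 5 without R2R3_KO library 1 or 2.

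At single fragments, 36 of the 130 tested members passed in R2R3_KO, against 20.4% of the 225 tested fragments within 500 kb (edgeR, adjusted p under 0.05). All 36 fell, as did 20% of the 225, and none rose, as 0.444% did. At an unadjusted p under 0.05 there were 56. The median log2 change was -0.38 in the 130 members and -0.27 in all 225. The fragment from 69937333 to 69937682, the same one that was low in ES cells, had 208, 95 and 227 normalised reads in R2R3_KO and 442, 441 and 338 in R1R2_KO, against 383, 444 and 404 in control. R2R3_KO lay below both other groups (against control, log2 change -1.22, SE 0.22, edgeR adjusted p = 6.93e-06), while R1R2_KO overlapped with control (-0.004, edgeR adjusted p = 0.989). Of the single deletions, each a single library, R3_KO was lowest there, with 139, against 253 to 414 in the others.

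The fragment from 69940742 to 69940929 had 194, 161 and 252 normalised reads in R2R3_KO, against 341, 497 and 429 in control (log2 change -1.06, SE 0.22, edgeR adjusted p = 5.54e-05). Both fragments passed in each of 15 alternatives. Outside the far summit, the fragment from 69946503 to 69946882 had 55, 15 and 59 in R2R3_KO (8, 2 and 7 reads), against 179, 125 and 72 in control. It fell most of the named fragments (log2 change -1.60, SE 0.39, edgeR adjusted p = 0.00079), and it too passed in each of 15 alternatives. The fragment from 69952344 to 69952891 on the shelf had 55, 51 and 42 in R2R3_KO, against 148, 145 and 92 in control (log2 change -1.37, SE 0.38, edgeR adjusted p = 0.00458). That from 69908111 to 69908135, inside the peak of 5.2 kb, had 104, 58 and 92, against 152, 251 and 148 in control (-1.09, edgeR adjusted p = 0.00567), and passed in 10 of 14 alternatives. The median change of all 225 fragments moved by 0.28 with TMM factors and by 0.26 with the local scale. The count of 36 was 4 with TMM factors or the local scale and 10 with no filter on low counts, and it reached 62 with reads outside the domain as library size. Without control library 2 it was 21, and without R2R3_KO library 1 or 2 it was 22.

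In R1R2_KO 7 of the 130 fragments passed, against 4.0% of the 225 (edgeR, adjusted p under 0.05). All 7 fell, as did 3.56% of the 225, and none rose, as 0.444% did. At an unadjusted p under 0.05 there were 25. The fragment from 69941833 to 69942029, in the far summit, had 282, 271 and 352 normalised reads in R1R2_KO and 304, 219 and 412 in R2R3_KO, against 421, 627 and 552 in control. Both pairs were below control and overlapped with each other (R1R2_KO against control, log2 change -0.81, SE 0.18, edgeR adjusted p = 0.00167). The fragment from 69911339 to 69912604, in the window at 9.2 kb, had 336, 318 and 230 in R1R2_KO and 526, 409 and 446 in R2R3_KO, against 421, 531 and 511 in control (R1R2_KO against control, -0.71, edgeR adjusted p = 0.0074). Here R2R3_KO overlapped with control and R1R2_KO did not. The count of 7 was 0 without control library 2, 2 without control library 3 or R1R2_KO library 3, 4 without R1R2_KO library 2 and 19 without control library 1, and it was 3 with DESeq2 or TMM factors and 2 with no filter on low counts.

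At the 8 peaks the R2R3_KO mean was 63.7% to 89.2% of the control mean, lowest at 33.2 kb and highest at 54.2 kb. The peak of 33.2 kb had 842, 1004 and 901 normalised reads per kb in R2R3_KO and 1172, 999 and 1090 in R1R2_KO, against 1192, 1616 and 1502 in control. The peak of 40.2 kb had 1022, 934 and 1151 in R2R3_KO and 1187, 1171 and 1292 in R1R2_KO, against 1379, 1678 and 1602 in control. At both, all libraries of either pair were below all control libraries. The R1R2_KO mean was 70.4% to 113.2% of the control mean over the 8 peaks, and it was above control at 44.2 kb only.

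Whether the peaks differed more than the chromatin between them was read from the ratio of peak over rest. This ratio, reads per kb of the 34 peak fragments over reads per kb of the other 101 inner fragments, averaged 0.76 ± 0.08 in R1R2_KO and 0.81 ± 0.04 in R2R3_KO on the log2 scale, against 0.87 ± 0.05 in control (SD, n = 3 each). The R2R3_KO libraries (0.77, 0.79 and 0.86) overlapped with control (0.83, 0.92 and 0.85), with a difference of -0.06 (exact permutation p = 0.3). The R1R2_KO libraries (0.79, 0.68 and 0.83, highest 0.826) did not overlap with control (lowest 0.832), with a difference of -0.10 (exact permutation p = 0.1, the smallest possible, and 0.225 adjusted over 9 comparisons). In ES cells the ratio was 0.88, inside the erythroid range of 0.68 to 0.92. These differences moved with the peak threshold, to -0.039 (lower threshold) and -0.17 (fold of 2) for R1R2_KO and to -0.13 and -0.18 for R2R3_KO.

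**Figure D5:**
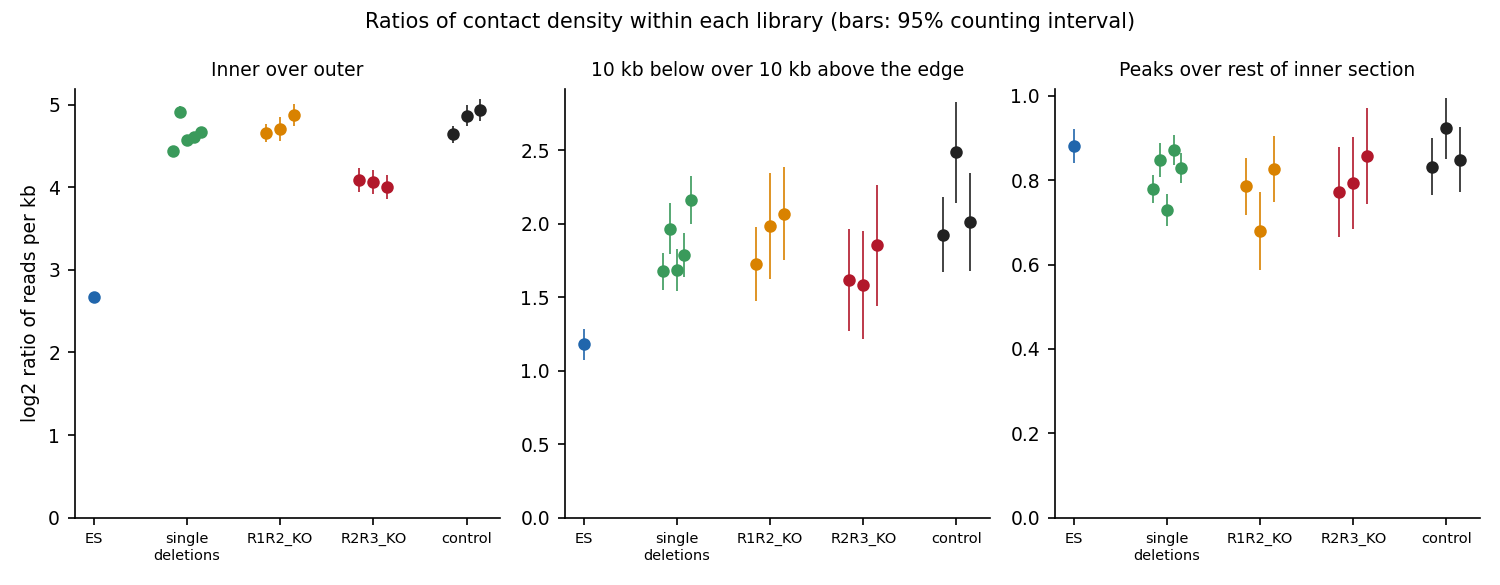
Log2 ratios of reads per kb within each library, with 95% counting intervals as bars: inner over outer section, 10 kb below over 10 kb above the edge, and peaks over the rest of the inner section. ES cells are lowest in the first and second panel (2.68 and 1.18) and inside the erythroid range in the last, and the 3 R2R3_KO libraries are the lowest erythroid ones in the first.

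The single deletions, each with 1 library and no replicate check, all had the far summit above the valley. In some 1 kb bins R3_KO departed from the others. At 4.2 kb it had 698 normalised reads per kb, against 1286 to 1610 in the others, and at 10.2 kb 1200, against 539 to 614. ES cells had 429 and 868 in these bins, which were picked from the profile and carry no test. In the 5 kb windows each single deletion library was set against the median of the other 4. Of 155 window values 12 were past 1.5-fold, all in the outer section, against 32.7% of the 965 values within 500 kb. In the inner section R2_KO was above the median of the others in all 11 windows, by 1.10-fold to 1.35-fold. R1_KO ran from 0.78 to 1.06, Rm_KO from 0.85 to 1.10 and R4_KO from 0.85 to 1.03. R3_KO had the widest range, lowest at 39.2 kb with 0.77 and highest at 9.2 kb, and the lowest far summit over valley, 1.43. R2_KO also had the highest chromosome 14 share of the 5, 69.0%, and the lowest depth, 109588 reads; their part in its level was not tested.

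No gene table of the mm9 build was used here, and the neighbours of Slc25a37 are given from the GRCm38.p6 gene table by order only. On the side of higher coordinates, and so on the side of the domain, the lncRNA Gm27222 and Gm31896 come first, then the lncRNA Gm31748 and Synb, which encodes syncytin-B, a retroviral envelope protein used by the mouse placenta for cell fusion. They are followed by the lncRNA Gm41197 and Gm16677 and by Entpd4, a nucleotide-hydrolysing enzyme of intracellular membranes. Which of them lie inside the domain was not determined, since positions of that build cannot be set on mm9 fragments here. Entpd4 has a further copy in the table, Entpd4b, and the sources used here do not say how reads shared by both copies were counted.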

How the data were processed

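NG Capture-C counts of the Slc25a37 viewpoint were analysed in 15 samples. The authors deposited raw read counts per DpnII fragment in mm9, not scaled to depth, 1 table with R1R2_KO, R2R3_KO and control and 1 with the single deletions and ES cells. The submitters' processing notes list Trim Galore and Bowtie, with no version. A further 7 columns of the first table belong to no sample analysed here and were left out. The ES sample's label lists Slc25a38 instead of Slc25a37; the ES column of the Slc25a37 table was analysed.

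Fragments were put into windows by midpoint; for the 1 kb bins a fragment's reads were spread evenly over its length. Library size was the reads on chromosome 14 more than 2 kb from the viewpoint midpoint (11895 to 31239 in the replicated libraries, 74149 to 158960 in the others). The test was edgeR's quasi-likelihood F test (edgeR 4.0.16 in R 4.3.3) with no term but group, on all windows or fragments within 500 kb that held 90 or more reads over the 9 libraries, and p-values were adjusted within a contrast over all of them. The step was tested on simulated data. Alternatives were DESeq2 1.42.0, limma 3.58.1 (voom), TMM factors, library sizes from the reads within 500 kb (local scale) or outside the domain, no filter on low counts, a 5 kb exclusion zone, other window sizes, flanks, borders and peak thresholds, and leaving out each library. Ratios within a library were compared by exact two-sided permutation tests with Python 3.11.15 and scipy 1.17.1. Counting intervals are 95% Wilson binomial intervals; without molecular identifiers they cover counting error only.

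All windows could be named. Named fragments were the 5 lowest and 5 highest past 0.05 in each pair against control (none was higher), the 5 with the most reads per kb in the single deletions and the peaks. Members, windows and lists were chosen with earlier results of these data known. The labels call the replicates biological but name no litter or donor, and every p-value rests on the spread of these libraries alone. R2R3_KO libraries 1 and 3 differed by less than sampling noise at Slc25a37 (chi-square over degrees of freedom 0.98, p = 0.547) but not at the globin viewpoints (1.49 and 1.65), and were counted apart. The replicate numbers are not stated to mark shared animals or days, so no block was used in the main fit. Deviations of same-numbered libraries of different groups had correlations of -0.15 to 0.21 over 78 windows in 9 pairs. With so few libraries these values cannot tell whether any were paired. No sequence is shown, as no genome of the mm9 build was used here.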

Additional observations from a re-analysis of the deposited data

How the results depend on the processing

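With the replicate number as a block the member windows past the threshold were 11 for R2R3_KO against control, 2 for R1R2_KO against control and 9 for R2R3_KO against R1R2_KO, and the fragments 33 and 7; it changed no other call, and the numbers are not known to pair the libraries. The window count for R1R2_KO was 0 with TMM factors, 0 with only the 2 groups compared and 0 with windows of 2.5 kb, and 0 to 6 without single libraries. For R2R3_KO it was 6 with windows of 10 kb and 7 to 11 without single libraries, with 7 without control library 2 or R2R3_KO library 1 or 3. For R2R3_KO against R1R2_KO it was 5 with DESeq2 and 2 to 7 without single libraries. The fragment count for R1R2_KO was 3 with DESeq2, 3 with TMM factors, 2 with no filter on low counts and 0 to 19 without single libraries. For R2R3_KO it was 4 with TMM factors, 4 with the local scale, 62 with reads outside the domain as library size, 10 with no filter and 21 to 47 without single libraries. The window from 69909870 turned to 0.034 in R2R3_KO with the local scale. The edge difference for R2R3_KO was -0.71 with flanks of 20 kb and -0.56 to -0.28 without single libraries, weakest without control library 2; for R1R2_KO it was -0.32 to -0.04. The inner over outer difference ran from -0.85 to -0.70 in R2R3_KO and from -0.16 to -0.01 in R1R2_KO. Peak over rest was -0.039 (R1R2_KO) and -0.13 (R2R3_KO) with the lower peak threshold, -0.17 and -0.18 with a fold of 2, and ran from -0.14 to -0.06 and -0.09 to -0.03 without single libraries. With windows of 10 kb 10 of 15 were past 2-fold in ES cells and 0 single deletion values past 1.5-fold; fewer windows enter there. The causes of the other changes were not tested. Fewer than 90 reads over 9 libraries left 5 outer windows untested.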
